A study of Mus musculus with 46 samples.

Results

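The genes described here are 34 genes of glucose breakdown and of the response to low oxygen, followed through T cells that do or do not carry an LMO2 transgene. They were chosen by name, as the rows of the count table whose gene symbol is on a fixed list, and all 34 of the 34 symbols were found among the 19521 genes of the table. By role they are 2 glucose transporters (Slc2a1, Slc2a3), 2 hexokinases (Hk1, Hk2), the enzymes from Gpi1 to Pkm with their isoform genes, the lactate dehydrogenases Ldha and Ldhb, Pdk1 and Pdha1 at the entry of pyruvate into mitochondria, the regulators Pfkfb3 and Pfkfb4, the monocarboxylate transporters Slc16a1 and Slc16a3, and 8 genes of oxygen sensing and its targets (Egln1, Egln3, Hif1a, Bnip3, Vegfa, Mxi1, P4ha1, P4ha2).

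RNA was sequenced from sorted primary T cells of C57BL/6 mice in 40 libraries of 14 groups. Transgenic mice (TG, labelled hCD2-LMO2 knock-in) were set against wild-type mice (WT) in thymocytes of the DN1 stage, the DN3 stage, a total DN mixture, DP cells, CD4SP cells and CD8SP cells. Splenic CD4+ and CD8+ T cells were sequenced from TG mice alone, so their reference here is the thymic single-positive cell of the same lineage and genotype. Each group has 3 libraries except WT DN1, which has 1, and the labels give neither age nor which libraries share an animal. DN (double negative) thymocytes carry neither CD4 nor CD8, DP (double positive) cells carry both, and single-positive (SP) cells carry 1 of them. In the name of the transgene, hCD2 refers to human CD2, whose control elements are active in the T-cell lineage, and the LMO2 protein joins DNA-binding factors into complexes and is known as an oncogene product in T-cell leukaemia.

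Glycolysis turns glucose into pyruvate. Lactate dehydrogenase can then reduce pyruvate to lactate, which leaves the cell through monocarboxylate transporters, or pyruvate dehydrogenase passes it to the mitochondria, a step that the kinase Pdk1 inhibits. When oxygen is plentiful, the EGLN prolyl hydroxylases mark HIF-1 alpha, encoded by Hif1a, for destruction. When it is scarce, the factor accumulates and activates genes that carry its binding motif, among them many glycolytic genes, Vegfa, Egln3 and Bnip3. In the thymus, DN3 cells that pass the check of their T-cell receptor beta chain divide rapidly and take up glucose, whereas most DP cells are small and resting.

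Promoter windows from RefSeq on the GRCm38.p6 build, running from 250 bases before to 50 bases after a transcript start, were found for 33 of the 34 genes and all but Slc2a3. The following 5 are shown as examples of genes that changed in comparisons reported below, and they differ in how many hypoxia-type motifs they hold. Genes with differences as large or as often repeated, such as Tpi1, Aldoc and Vegfa, are not shown. Capitals mark ACGTG and GCGTG, and the longer motif CACGTG, searched on both strands. The longer motif contains the first of these on each strand. The second annotated start of Hk1 lies at chr10:62340372-62340671 on the minus strand.
Hk1: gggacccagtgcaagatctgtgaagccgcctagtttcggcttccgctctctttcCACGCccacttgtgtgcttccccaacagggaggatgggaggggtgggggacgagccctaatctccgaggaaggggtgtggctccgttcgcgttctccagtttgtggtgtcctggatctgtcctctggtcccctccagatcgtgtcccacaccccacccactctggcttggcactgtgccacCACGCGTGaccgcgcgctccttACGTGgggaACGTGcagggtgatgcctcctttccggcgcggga
The first start of Ldha lies at chr7:46845554-46845853 on the plus strand.
Ldha: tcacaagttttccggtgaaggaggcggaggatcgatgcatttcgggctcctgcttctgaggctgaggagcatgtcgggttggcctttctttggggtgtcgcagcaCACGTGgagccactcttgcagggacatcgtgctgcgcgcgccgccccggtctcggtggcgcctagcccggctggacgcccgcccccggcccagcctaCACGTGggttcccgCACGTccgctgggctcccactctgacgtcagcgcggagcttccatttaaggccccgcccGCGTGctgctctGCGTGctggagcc
The window of Ldhb lies at chr6:142507908-142508207 on the minus strand.
Ldhb: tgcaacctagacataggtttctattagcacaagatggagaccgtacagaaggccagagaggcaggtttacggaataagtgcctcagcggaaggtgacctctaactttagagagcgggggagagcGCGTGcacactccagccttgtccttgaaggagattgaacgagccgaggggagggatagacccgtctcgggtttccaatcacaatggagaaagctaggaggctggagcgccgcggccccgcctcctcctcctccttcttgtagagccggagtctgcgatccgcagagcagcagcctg
The window of Slc16a1 lies at chr3:104638414-104638713 on the plus strand.
Slc16a1: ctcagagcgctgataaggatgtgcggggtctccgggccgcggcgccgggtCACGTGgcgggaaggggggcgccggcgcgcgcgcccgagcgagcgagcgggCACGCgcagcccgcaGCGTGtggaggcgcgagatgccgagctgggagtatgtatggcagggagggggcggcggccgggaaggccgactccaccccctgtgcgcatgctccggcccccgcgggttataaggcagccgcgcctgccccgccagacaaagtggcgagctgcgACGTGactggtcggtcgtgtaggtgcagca
The window of Egln3 lies at chr12:54203825-54204124 on the minus strand.
Egln3: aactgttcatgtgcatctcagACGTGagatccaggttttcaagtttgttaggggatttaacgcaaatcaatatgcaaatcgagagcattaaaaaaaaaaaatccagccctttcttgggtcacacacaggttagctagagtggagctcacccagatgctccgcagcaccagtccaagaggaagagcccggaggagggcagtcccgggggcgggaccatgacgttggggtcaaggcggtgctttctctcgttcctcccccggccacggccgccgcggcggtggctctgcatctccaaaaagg

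The Ldha window holds ACGTG 5 times and GCGTG 2 times, the Slc16a1 window 3 and 2 times, and the Hk1 window 2 and 3 times, whereas the Egln3 window holds 1 ACGTG and the Ldhb window 1 GCGTG. Of the 33 genes with a window, 30 (90.9%) held ACGTG or GCGTG in at least 1 of their windows, against 46.7% of the 27025 genes with a window in the same reference. ACGTG alone was held by 22 of the 33 genes (66.7%), against 21.8% of all genes, and CACGTG by 6 of the 33 (18.2%), against 8.09% of all. The median GC content of the windows was 62% for the listed genes and 52.7% for all genes, and motifs that contain CG are met more often where GC content is high. Tpi1, which changed in several comparisons below, held neither ACGTG nor GCGTG in its window. A motif match describes the sequence and is not a binding site.

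Total counts per library were between 17211426 and 28842773. CPM, the count over the library total after TMM scaling, is used below to compare libraries for 1 gene. FPKM, which is divided by gene length, is used to compare genes. The mouse Lmo2 row read 16.5 to 87.1 CPM in 23 of the 24 TG libraries. It read 30.7 CPM in the WT DN1 library, 3.66 to 4.42 CPM in WT total DN and 0.122 to 2.26 CPM in the other WT groups. The library labelled TG DP replicate 3 had 0.397 CPM and therefore goes against its label, so TG DP results are also given without it. Libraries of splenic CD4 replicate 3, splenic CD8 replicate 1 and total DN carried red-cell or myeloid transcripts at levels given beside the results they touch. In 12 of the 40 libraries the column name carries a final N that is not explained, and its relation to the listed genes is given at the end.

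Measured per length, Gapdh was the most abundant of the 34 genes with a median over 40 libraries of 1908 FPKM, followed by Ldha at 442, Pkm at 391 and Eno1 at 377 FPKM. The least abundant were P4ha2 at 0.325 FPKM, Eno2 at 0.400 FPKM and Aldoc at 0.650 FPKM. Counting reads, the 34 genes together took between 0.429% and 1.15% of a library. Every gene had reads in every library except P4ha2, which had none in TG total DN replicate 3. 

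The genes differed widely in how far their level moved between groups. Ldhb spanned the widest range, with its highest group mean in TG DP cells 129-fold above its lowest in TG splenic CD8+ cells on the CPM scale. Vegfa, the vascular growth factor gene, spanned 45.7-fold, from WT DN3 down to TG splenic CD4+ cells. P4ha2 spanned 32.0-fold and Eno2 30.4-fold, both from low counts, and Egln3 spanned 30.4-fold. At the other end, Pdha1, a subunit of pyruvate dehydrogenase, spanned 1.80-fold, Pkm 1.86-fold and Egln1 1.87-fold. The heat map of all libraries shows that the wide-ranging genes did so in different cells.

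**Figure D1:**
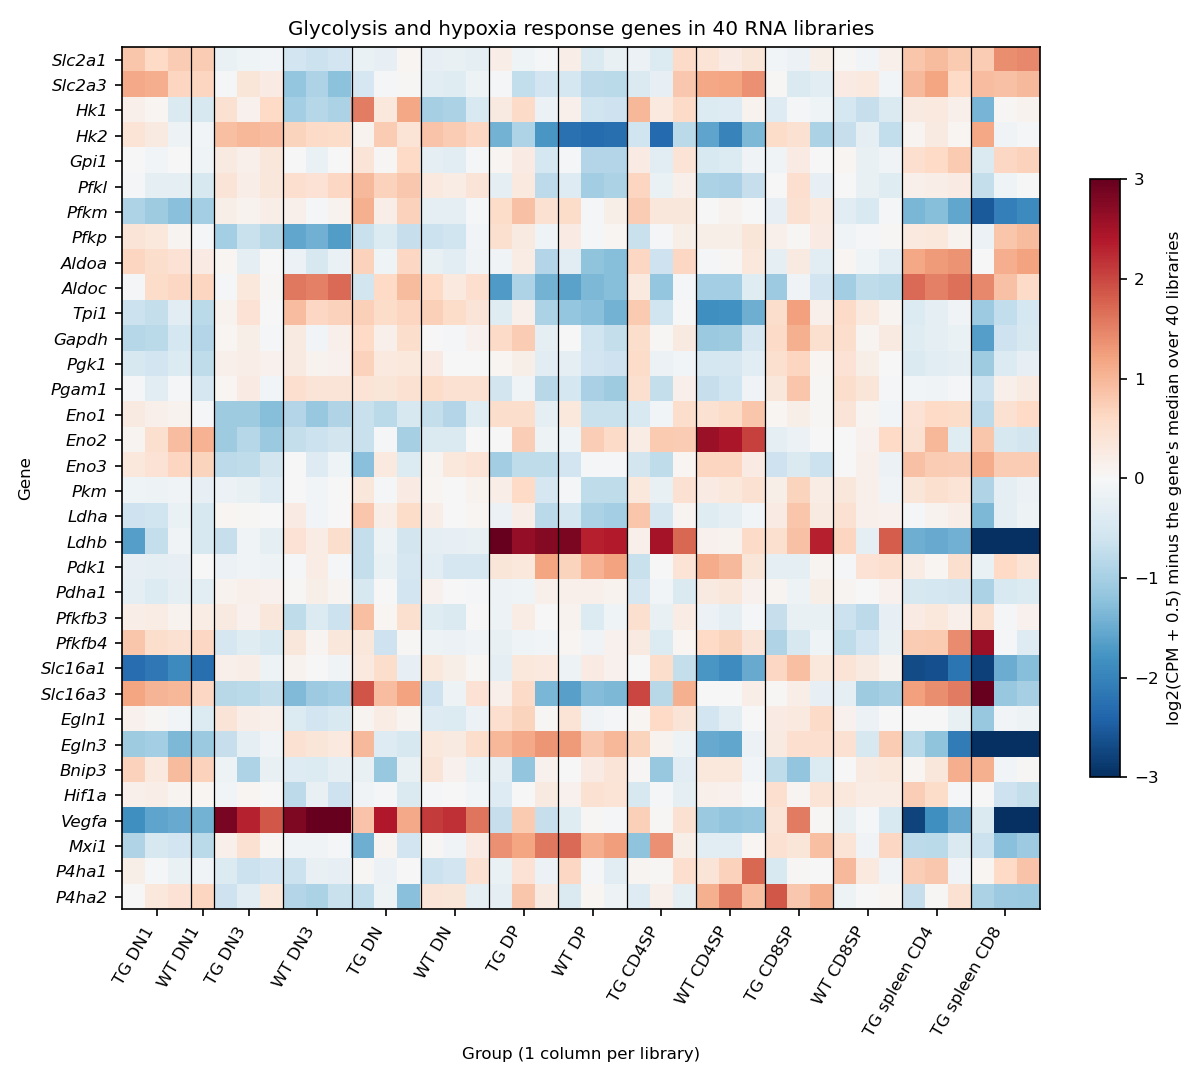
Level of the 34 genes (rows) in each of 40 libraries (columns, grouped by stage with TG left of WT), as log2(CPM + 0.5) minus the gene's median over all libraries, with the colours ending at 3 in either direction. Ldhb is high in DP libraries and low in splenic CD8 libraries, and Vegfa is high in DN3 libraries.

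In DN3 thymocytes the listed genes changed in both directions. Both glucose transporters, both hexokinases, Gpi1, the phosphofructokinase gene Pfkp and the regulator Pfkfb3 rose, whereas Aldoc, Tpi1, Pgam1, Eno3, Ldhb and Pfkfb4 fell. In the oxygen response, Hif1a, Egln1 and Mxi1 rose and Egln3 fell. Altogether 10 genes rose and 7 fell of 33 tested, by the quasi-likelihood F test of edgeR at a Benjamini-Hochberg adjusted p of 0.05 over all 12037 genes tested. In this contrast 45.7% of all genes tested passed (23.4% higher and 22.2% lower), so the share of listed genes that passed, 17 of 33, was near the background. The median log2 fold change was -0.02 over the 33 genes and -0.03 over all genes. In these bulk samples, more of 1 cell type and more RNA per cell cannot be told apart.

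Hexokinase 1 traps glucose in the cell as glucose 6-phosphate. Its gene, Hk1, had 318, 252 and 349 CPM in TG DN3 cells, against 114, 127 and 120 CPM in WT DN3 cells. Every TG library was above every WT library, with a log2 fold change of 1.37 (SE 0.13, edgeR adjusted p = 0.000107). Slc2a3, which encodes the high-affinity glucose transporter GLUT3, had 36.7, 48.4 and 44.8 CPM in TG cells and 16.5, 19.6 and 15.8 CPM in WT cells. The groups did not overlap, and the log2 fold change was 1.34 (SE 0.15, edgeR adjusted p = 0.000176). Slc2a1, encoding the more general transporter GLUT1, differed less, with 24.7, 26.2 and 27.0 CPM in TG cells and 18.9, 18.0 and 18.9 CPM in WT cells (log2 fold change 0.50, SE 0.11, edgeR adjusted p = 0.00612). The share of Slc2a3 in the summed FPKM of both transporters was accordingly 51.7% ± 2.89 in TG and 36.9% ± 3.60 in WT DN3 cells (SD, n = 3 each).

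Phosphofructokinase commits sugar to glycolysis and is driven by fructose 2,6-bisphosphate, which PFKFB enzymes make and remove. Pfkp, the platelet-type subunit, had 73.9, 94.8 and 84.1 CPM in TG and 50.5, 54.9 and 46.7 CPM in WT DN3 cells (log2 fold change 0.75, SE 0.12, edgeR adjusted p = 0.00143). The other subunit genes did not pass, at log2 -0.19 for Pfkl and 0.11 for Pfkm. Pfkfb3, whose enzyme mainly makes the activator, had 113, 101 and 118 CPM in TG and 55.1, 70.04 and 59.8 CPM in WT cells (log2 fold change 0.87, SE 0.12, edgeR adjusted p = 0.000616). Pfkfb4 went the other way, with 5.35, 6.03 and 5.60 CPM in TG and 10.0, 8.37 and 10.0 CPM in WT cells (log2 fold change -0.72, SE 0.17, edgeR adjusted p = 0.00875). For each of these 3 genes that passed the groups did not overlap.

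Among the later enzymes, Aldoc, the brain-type aldolase gene, had 1.55, 2.14 and 1.66 CPM in TG and 5.76, 5.54 and 6.33 CPM in WT DN3 cells (log2 fold change -1.70, SE 0.23, edgeR adjusted p = 0.000582). The abundant isoform Aldoa did not pass, at log2 0.23. Ldhb, whose subunit is often linked to oxidation of lactate, had 52.7, 79.5 and 69.8 CPM in TG and 117, 100 and 124 CPM in WT cells (log2 fold change -0.73, SE 0.16, edgeR adjusted p = 0.00558). Ldha, the other subunit gene, did not pass, at log2 -0.03, and neither did Gapdh (-0.04), Pgk1 (0.02) or Pkm (-0.20). Tpi1, which interconverts the triose phosphates, had 123, 155 and 116 CPM in TG and 219, 176 and 187 CPM in WT cells (log2 fold change -0.54, SE 0.14, edgeR adjusted p = 0.012). Eno3, the muscle-type enolase gene, had 7.86, 7.99 and 9.26 CPM in TG and 14.0, 10.5 and 12.7 CPM in WT cells (log2 fold change -0.55, SE 0.17, edgeR adjusted p = 0.0279). In Ldhb, Tpi1 and Eno3 the lowest WT library stood above the highest TG library.

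In the oxygen response, Egln1, which encodes the main hydroxylase PHD2, had 143, 126 and 122 CPM in TG and 82.3, 73.2 and 80.4 CPM in WT DN3 cells. The groups did not overlap, with a log2 fold change of 0.75 (SE 0.10, edgeR adjusted p = 0.00054). Egln3, which encodes PHD3, itself a target of HIF-1, moved oppositely, with 17.1, 23.2 and 25.9 CPM in TG and 38.7, 35.9 and 34.4 CPM in WT cells (log2 fold change -0.70, SE 0.16, edgeR adjusted p = 0.00744). Egln3 made up 18.5% ± 4.25 of the summed FPKM of both hydroxylase genes in TG and 38.1% ± 1.60 in WT DN3 cells (SD, n = 3 each). Vegfa, another HIF target, did not pass, with 40.02, 27.5 and 20.1 CPM in TG and 39.3, 46.8 and 47.0 CPM in WT cells (log2 fold change -0.59, SE 0.22, edgeR adjusted p = 0.0583). P4ha2 had too few reads to be tested here. 

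When each DN3 library was left out in turn, 11 of the 17 genes kept an adjusted p under 0.05 every time. Hk2, Gpi1, Pgam1, Eno3, Hif1a and Mxi1 lost it at least once, and the count over the 33 was 11 without WT DN3 replicate 3. Over all genes 3802 then passed, against 5497 with no library left out. In 1 fit of all 40 libraries 6 of the 17 passed (Hk1, Slc2a3, Egln1, Pfkfb3, Pfkp and Aldoc). Of the fixed lists beside the 34 genes, other glycolysis and pyruvate genes had 3 higher and 6 lower of 20 tested, pentose phosphate genes 1 higher and 2 lower of 7, and other hypoxia genes 8 higher and 5 lower of 24. Plod2, a lysyl hydroxylase of collagen, averaged 47.4 ± 2.16 CPM in TG and 11.3 ± 1.79 CPM in WT cells, and Hif3a, a further HIF alpha subunit gene, averaged 53.5 ± 12.3 CPM in TG and 12.1 ± 1.72 CPM in WT cells (SD, n = 3 each). Slc2a8, a glucose transporter of inner membranes, averaged 7.91 ± 2.14 CPM in TG and 0.983 ± 0.133 CPM in WT cells. Ndrg1, a stress gene, averaged 48.6 ± 2.99 CPM in TG and 128 ± 19.2 CPM in WT cells. All 4 passed with edgeR. None of 12 cell division markers passed. Markers of mature T cells summed to 1365 to 1603 CPM in TG and 569 to 684 CPM in WT DN3 libraries, with 3 of 6 higher, and DN3 markers to 2176 to 2234 CPM in TG and 2041 to 2385 CPM in WT libraries, with 3 higher and 3 lower of 6. The part of these markers in the results was not tested.

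**Figure D2:**
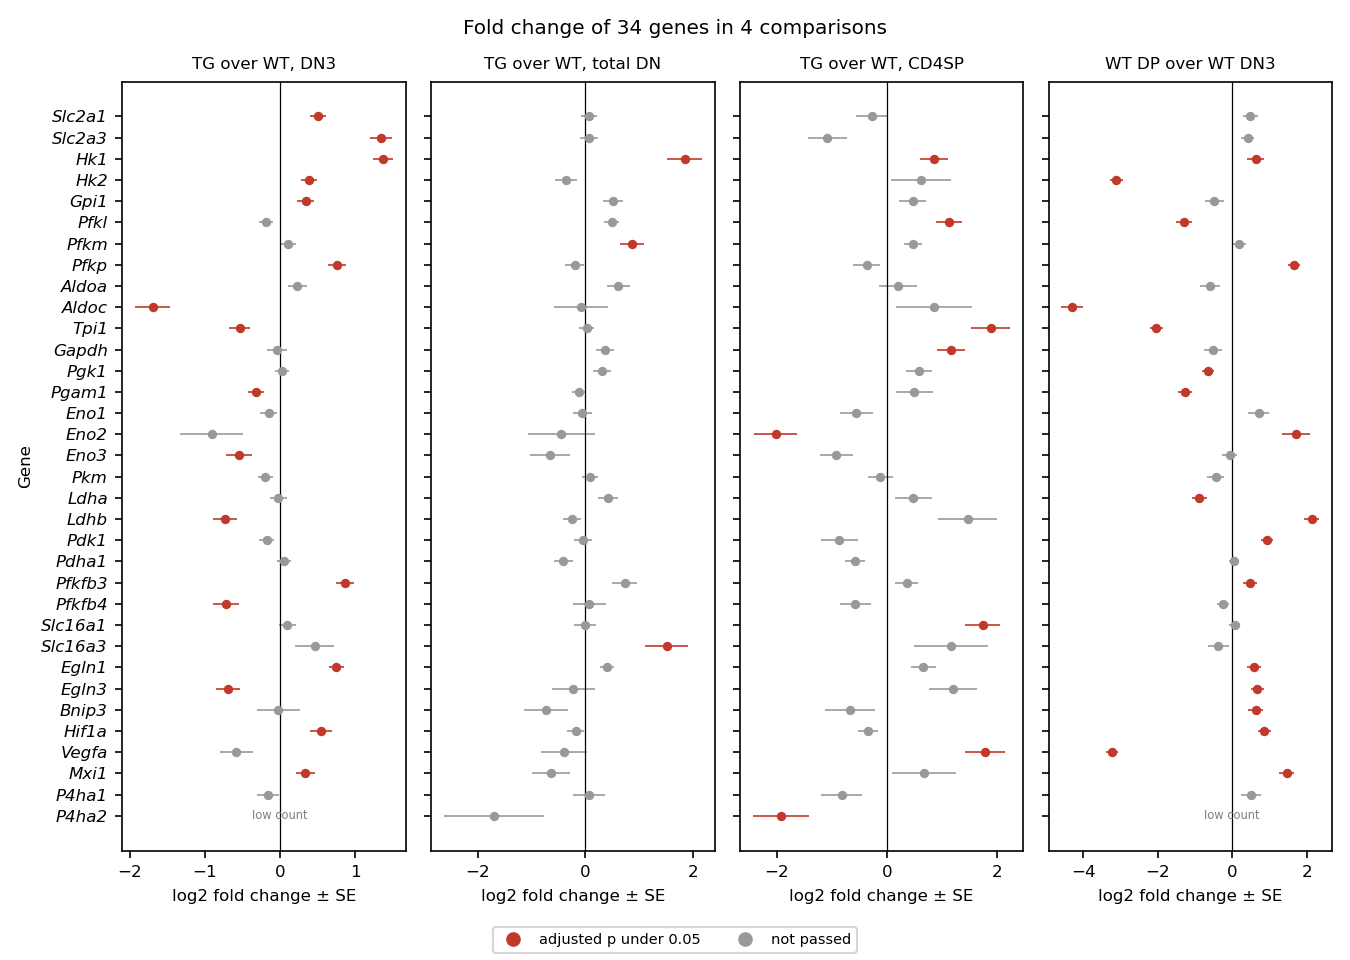
Log2 fold change with its SE for the 34 genes (rows) in 4 comparisons, each panel with its own horizontal scale, red where edgeR's adjusted p was under 0.05 and grey where it was not. In TG DN3 cells Hk1 (1.37) and Slc2a3 (1.34) lie farthest right and Aldoc (-1.70) farthest left.

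In the total DN mixture Hk1 was again the gene with the smallest p. It had 674, 286 and 521 CPM in TG cells, against 116, 118 and 167 CPM in WT cells, so the groups did not overlap, and the log2 fold change was 1.84 (SE 0.32, edgeR adjusted p = 0.0152). Pfkm, the muscle-type phosphofructokinase gene, had 75.7, 41.1 and 57.8 CPM in TG and 29.5, 29.3 and 34.2 CPM in WT cells (log2 fold change 0.86, SE 0.22, edgeR adjusted p = 0.0445). Slc16a3, the lactate exporter gene MCT4, had 17.8, 8.87 and 11.0 CPM in TG and 2.71, 3.93 and 6.23 CPM in WT cells (log2 fold change 1.5, SE 0.39, edgeR adjusted p = 0.0447). These 3 were the genes that passed, all higher, of 34 tested, against 12.4% of all genes (7.47% higher and 4.89% lower). In 11 of the 34 genes the groups did not overlap, as in 39.2% of all genes. In Hk1, Pfkm and Slc16a3, TG replicates 1 and 3 were the highest libraries, and those are the TG DN columns whose names end in N. Each of the 3 lost its call when some library was left out. The count was 11 without TG replicate 2 and 0 without TG replicate 3, WT replicate 1 or WT replicate 2. None passed with a term for that suffix in the model. Over all genes, 3146 passed without TG replicate 2, 371 without TG replicate 3, 252 without WT replicate 1 and 179 without WT replicate 2. With the suffix term 198 did, against 1547 with no library left out and no such term.

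The DN mixture also held red-cell transcripts in unequal amounts. The erythroid markers summed to 47.3, 2737 and 436 CPM in TG libraries and 1753, 1545 and 22185 CPM in WT libraries. Without TG replicate 2 and WT replicate 3, which had the highest sum of their group, 11 genes rose and 2 fell, against 30.8% of all genes passing. That choice was made after the data were seen, and the libraries it leaves in the TG group are those with the suffix. Hk1 then had a log2 fold change of 2.33, Slc16a3 of 2.09, Pfkm of 1.16 and Pfkfb3 of 1.09, while Vegfa had -1.18 and Pdha1 -0.62. Of the other hypoxia genes, Hif3a averaged 46.6 ± 18.7 CPM in TG and 9.10 ± 0.383 CPM in WT cells, and Ak4, a mitochondrial adenylate kinase gene, averaged 1.86 ± 0.730 CPM in TG and 8.84 ± 1.51 CPM in WT cells (SD, n = 3 each, all libraries). These were the 2 that passed with edgeR of 24 tested. Fbp1, a gluconeogenic enzyme, averaged 20.1 ± 17.5 CPM in TG and 0.704 ± 0.162 CPM in WT cells and was 1 of 2 higher of 22 other glycolysis genes, with 1 lower. In the pentose phosphate list 1 of 7 rose and 0 fell.

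In DN1 cells, which precede the other stages, none of the 34 genes passed and neither did any other gene (0%). At an unadjusted p under 0.05 there were 0 listed genes and 157 genes in all. Hk1 had 255, 239 and 172 CPM in TG cells and 167 CPM in the single WT library, and Slc2a3 had 83.0, 80.7 and 59.5 CPM in TG cells and 58.9 CPM in the WT library. The WT library was below every TG library for both genes, by less than the spread among the TG libraries. This comparison came from 1 fit of all 40 libraries, which assumes that the lone WT library varies like the other groups. The WT DN1 library also had 30.7 CPM of Lmo2, against 35.1 to 44.2 CPM in TG DN1 cells.

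In DP cells none of the 34 genes passed with edgeR (33 tested, Aldoc having too few reads), and 0% of all genes did. At an unadjusted p under 0.05 there were 6 listed genes and 2450 genes in all. DESeq2 called 1 listed gene, Tpi1, and 618 genes in all. Log2 fold changes ran from -0.68 to 1.70, and 25 of 33 were positive. Tpi1 had 89.2, 129 and 59.1 CPM in TG DP cells, against 51.5, 48.1 and 42.7 CPM in WT DP cells. Slc16a3 had 5.03, 6.92 and 1.41 CPM in TG cells and 1.10, 1.51 and 1.46 CPM in WT cells. In both genes the library labelled TG replicate 3, the one with 0.397 CPM of Lmo2, was the lowest of its group.

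Without TG DP replicate 3, Tpi1 (log2 fold change 1.19, SE 0.20, edgeR adjusted p = 0.0293) and Slc16a3 (2.12, SE 0.36, edgeR adjusted p = 0.0306) passed, both higher in TG cells, and 7.6% of all genes did. DN3 markers summed to 987, 1056 and 171 CPM in the TG DP libraries, replicate 3 again being lowest, and to 130 to 143 CPM in WT DP libraries. Over the 3 TG DP libraries most of this sum was Dtx1 (mean 336 CPM) and Notch3 (mean 249 CPM). Dtx1 is not restricted to DN3 cells here, with means of 166 CPM in WT DN3 and 853 CPM in TG splenic CD4+ cells. Il2ra averaged 39.9 CPM in TG DP cells, against 1422 CPM in TG DN3 cells. The part of these markers in the differences of Tpi1 and Slc16a3 was not tested. None of the other glycolysis, pentose phosphate and other hypoxia genes passed in the fit of all 6 DP libraries.

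The genotype difference in DP cells was then set against that in DN3 cells by an interaction term. For 4 of 34 genes, 2 in each direction, the differences were unequal, against 10.2% of all genes (4.88% higher and 5.29% lower), so the share was near the background. Tpi1, lower in TG DN3 cells, had a difference larger by 1.52 on the log2 scale in DP cells (SE 0.33, edgeR adjusted p = 0.0173). Ldhb was likewise larger by 1.04 (SE 0.27, edgeR adjusted p = 0.0351), with 700, 537 and 585 CPM in TG DP cells and 610, 434 and 448 CPM in WT DP cells. For Slc2a3 the difference in DP cells minus that in DN3 cells was -1.04 (SE 0.28, edgeR adjusted p = 0.0386) and for Hif1a -0.87 (SE 0.25, edgeR adjusted p = 0.0484). Hif1a had 147, 164 and 155 CPM in TG and 89.8, 133 and 102 CPM in WT DN3 cells, and 120, 157 and 187 CPM in TG and 172, 214 and 207 CPM in WT DP cells. Every TG library was thus above every WT library in DN3 cells, whereas in DP cells the groups overlapped for both genes. Slc2a3 had 36.9, 22.3 and 25.0 CPM in TG and 26.0, 21.8 and 21.4 CPM in WT DP cells. Without TG DP replicate 3, 12 of the listed genes passed, among them these 4, with Tpi1 at 1.76 and Hif1a at -1.03. Over all genes the number that passed rose as well, from 1266 with no library left out to 2598. The count of listed genes was 8 without WT DP replicate 1 and 0 without WT DN3 replicate 1, where 1658 and 364 genes passed in all. It was 1 without TG DN3 replicate 1 or 3, WT DN3 replicate 3 or WT DP replicate 2 or 3, and 2 without TG DN3 replicate 2 or TG DP replicate 2. Over all genes 352 to 1091 passed in these fits.

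In CD4SP cells the TG libraries had more transcript of Slc16a1, Tpi1, Vegfa, Pfkl, Gapdh and Hk1 and less of Eno2 and P4ha2. These 8 of 34 tested compare with 25.9% of all genes. In 17 of the 34 the groups did not overlap, as in 49.7% of all genes, and the median log2 fold change was 0.47 over the 34 genes and 0.05 over all genes. Slc16a1, which encodes the monocarboxylate transporter MCT1, had 212, 311 and 132 CPM in TG and 64.1, 57.4 and 75.5 CPM in WT cells (log2 fold change 1.74, SE 0.32, edgeR adjusted p = 0.0137). Tpi1 had 200, 75.2 and 114 CPM in TG and 31.7, 32.1 and 41.4 CPM in WT cells (1.89, SE 0.35, edgeR adjusted p = 0.0147). Vegfa had 8.76, 5.27 and 7.31 CPM in TG and 2.14, 1.98 and 2.10 CPM in WT cells (1.78, SE 0.36, edgeR adjusted p = 0.0169). All 3 had groups that did not overlap, though the TG libraries varied more than the WT libraries.

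Pfkl, the liver-type phosphofructokinase gene, had 132, 73.8 and 93.8 CPM in TG CD4SP and 43.1, 42.6 and 52.0 CPM in WT CD4SP cells (log2 fold change 1.13, SE 0.24, edgeR adjusted p = 0.0192). Gapdh had 3419, 2422 and 2831 CPM in TG and 1093, 1126 and 1668 CPM in WT cells (1.16, SE 0.25, edgeR adjusted p = 0.0208). Hk1 had 458, 282 and 343 CPM in TG and 173, 177 and 249 CPM in WT cells (0.86, SE 0.25, edgeR adjusted p = 0.0449). In all 3, TG replicates 1 and 3, whose column names end in N, stood above replicate 2. Eno2, the neuronal-type enolase gene, had 1.24, 2.04 and 1.99 CPM in TG and 8.33, 7.63 and 5.58 CPM in WT cells (-2.02, SE 0.39, edgeR adjusted p = 0.016). P4ha2, a subunit of collagen prolyl hydroxylase, had 0.413, 0.816 and 0.468 CPM in TG and 1.99, 2.88 and 1.72 CPM in WT cells (-1.92, SE 0.51, edgeR adjusted p = 0.0336). Slc2a3 did not pass, with 27.8, 31.6 and 66.5 CPM in TG and 84.7, 85.8 and 98.8 CPM in WT cells (-1.08, edgeR adjusted p = 0.0602), although the groups did not overlap.

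The TG CD4SP libraries differed from the WT ones in their cell markers as well. All 12 cell division markers passed with edgeR and were higher, with a median log2 fold change of 2.54, and so were 3 of 6 DN3 and 3 of 7 DP markers. Of the B-cell markers 3 of 4 tested were higher (median log2 fold change 3.38) and of the myeloid markers 2 of 4 (median 2.75). None of 5 erythroid markers passed, though all 5 had positive fold changes (median 1.99) and 4 had an unadjusted p under 0.05. DP markers summed to 1997, 16713 and 6458 CPM in TG and 1661, 1668 and 2791 CPM in WT libraries, DN3 markers to 668 to 987 CPM in TG and 167 to 197 CPM in WT libraries, and mature T-cell markers to 435 to 1223 CPM in TG and 1676 to 2070 CPM in WT libraries. Most of the DN3 sum in TG CD4SP cells was Dtx1 (mean 277 CPM), Notch3 (205 CPM) and Il2ra (192 CPM), and Il2ra averaged 1422 CPM in TG DN3 cells. Ldhb followed the DP sum from library to library, with 95.8, 485 and 287 CPM in TG and 94.4, 92.8 and 129 CPM in WT cells. The part of these markers in the 8 differences was not tested. Without WT replicate 1, 0 of the 34 genes passed, 0 did without WT replicate 2 and 5 did without WT replicate 3. Over all genes 38, 100 and 1481 passed in these fits, against 3132 with no library left out. With a term for the suffix N, 3 of the 34 passed, and 2279 genes in all. Other glycolysis and pyruvate genes had 2 higher and 1 lower of 20, and other hypoxia genes 1 higher and 1 lower of 24. In the pentose phosphate list 3 of 7 genes rose and 0 fell. Pgls, the lactonase of that pathway, averaged 153 ± 66.5 CPM in TG and 36.3 ± 5.29 CPM in WT cells, and Tkt, transketolase, averaged 438 ± 99.9 CPM in TG and 188 ± 38.7 CPM in WT cells (SD, n = 3 each).

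In CD8SP cells none of the 34 genes passed with edgeR, against 4.45% of all genes (2.09% higher and 2.36% lower). At an unadjusted p under 0.05 there were 7 listed genes and 2270 genes in all, and DESeq2 called 2 listed genes and 1293 in all. Without TG CD8SP replicate 3, 1 listed gene passed with edgeR and 724 genes in all. P4ha2 had the smallest p, with 3.87, 1.59 and 2.0 CPM in TG and 0.577, 0.702 and 0.737 CPM in WT cells (log2 fold change 1.89, SE 0.48, edgeR adjusted p = 0.0797). Bnip3, a gene of mitochondrial removal, had 2.30, 1.59 and 3.10 CPM in TG and 4.28, 5.21 and 5.46 CPM in WT cells (-1.09, SE 0.36, edgeR adjusted p = 0.153). Neither gene's groups overlapped. P4ha2 thus had the opposite sign in CD8SP and CD4SP cells. Whether those 2 differences are unequal was not tested. Of the fixed lists, other glycolysis and pyruvate genes had 0 higher and 1 lower of 20, pentose phosphate genes 0 and 0 of 7, and other hypoxia genes 1 higher and 1 lower of 24, Plod2 averaging 26.4 ± 7.34 CPM in TG and 11.7 ± 1.81 CPM in WT cells (SD, n = 3 each).

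Over the 5 stages with 3 libraries of each genotype, 8 of 32 genes tested in all of them were higher in TG cells every time (Hk1, Gpi1, Pfkm, Aldoa, Pgk1, Pfkfb3, Slc16a3 and Egln1) and 4 were lower every time (Eno2, Eno3, Pdk1 and Bnip3). That is 37.5% of the 32 genes with 1 sign throughout, against 34.6% of 11109 genes tested in all 5 stages. Of these 12 genes, 8 passed in at least 1 of the stages with edgeR, and Aldoa, Pgk1, Pdk1 and Bnip3 passed in none. Hk1, Gpi1, Pfkm, Aldoa and Pgk1 were also higher in libraries whose column name ends in N, as given below. In total DN and CD4SP cells only the TG group has such libraries, so suffix and genotype cannot be fully told apart there. The plot of levels by library shows Hk1 above its WT reference at each stage and Tpi1 below it in DN3 and above it in CD4SP cells.

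**Figure D3:**
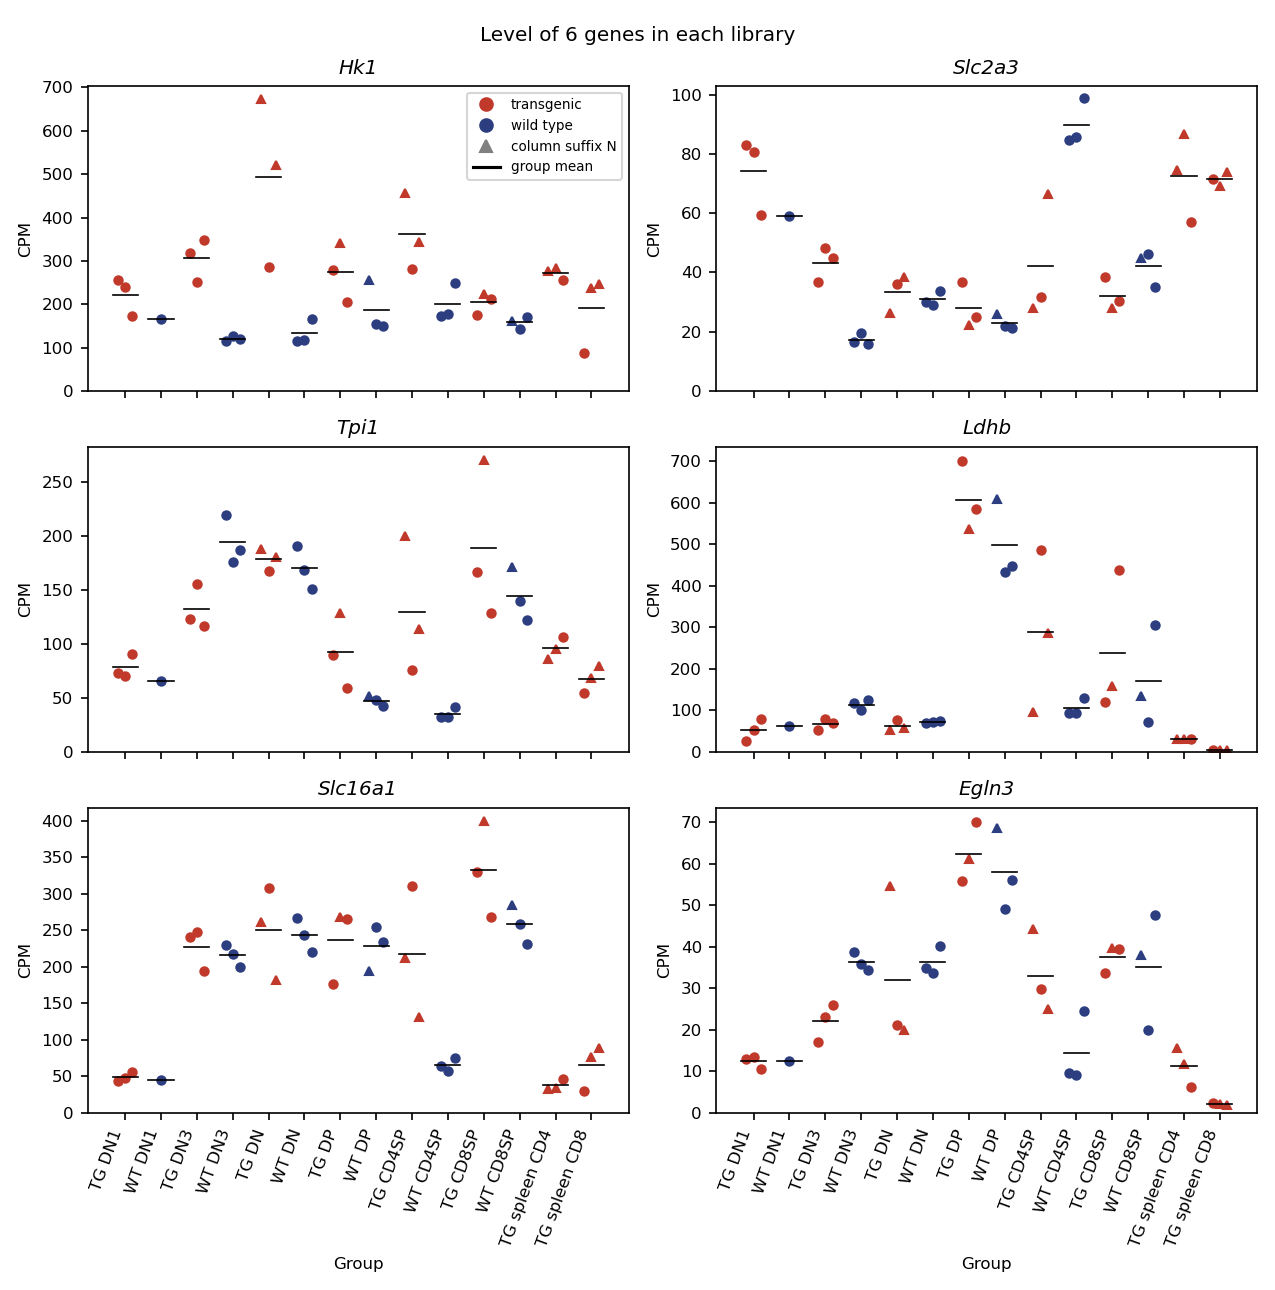
CPM of Hk1, Slc2a3, Tpi1, Ldhb, Slc16a1 and Egln3 in each library (points), with the group mean (line), TG in red left of WT in blue, and triangles for libraries whose column name ends in N. Hk1 reaches 674 CPM in TG total DN replicate 1, and Ldhb lies between 434 and 700 CPM in DP libraries of both genotypes.

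In WT mice DP cells were set against DN3 cells, the earlier stage. Of 33 genes tested, 11 rose and 8 fell in DP cells, against 60% of all genes passing (28.6% higher and 31.4% lower), so the share was near the background. The groups did not overlap in 22 of the 33 genes and in 67.9% of all genes. Vegfa had 3.88, 5.34 and 5.07 CPM in DP cells, against 39.3, 46.8 and 47.0 CPM in DN3 cells (log2 fold change -3.22, SE 0.17, edgeR adjusted p = 1.17e-06). Hk2, the hexokinase typical of growing cells, had 2.54, 2.40 and 2.48 CPM in DP and 22.4, 20.9 and 20.5 CPM in DN3 cells (-3.11, SE 0.16, edgeR adjusted p = 1.17e-06). Aldoc had 0.192, 0.326 and 0.365 CPM in DP and 5.76, 5.54 and 6.33 CPM in DN3 cells (-4.29, SE 0.29, edgeR adjusted p = 4.37e-06). In all 3 the groups lay far apart. Of 12 cell division markers 6 were higher and 2 lower in DP cells, with a median log2 fold change of 0.53. All 6 DN3 markers were lower and 6 of 7 DP markers higher in DP cells. The part of these markers in the differences was not tested. 

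Tpi1 had 51.5, 48.1 and 42.7 CPM in WT DP and 219, 176 and 187 CPM in WT DN3 cells (log2 fold change -2.03, SE 0.16, edgeR adjusted p = 1.14e-05). Pgam1, phosphoglycerate mutase, had 118, 86.0 and 80.6 CPM in DP and 240, 222 and 222 CPM in DN3 cells (-1.26, SE 0.19, edgeR adjusted p = 0.000437). Pfkl had 64.0, 40.5 and 43.5 CPM in DP and 120, 114 and 129 CPM in DN3 cells (-1.29, SE 0.20, edgeR adjusted p = 0.000585). Ldha (-0.88) and Pgk1 (-0.65) also fell, and Gapdh (-0.52) did not pass. Among the genes that rose, Pfkp had 179, 146 and 157 CPM in DP and 50.5, 54.9 and 46.7 CPM in DN3 cells (1.67, SE 0.15, edgeR adjusted p = 2.64e-05). Its share of the 3 phosphofructokinase genes by FPKM was 57.1% ± 0.900 in DP and 21.4% ± 1.86 in DN3 cells (SD, n = 3 each). Ldhb had 610, 434 and 448 CPM in DP and 117, 100 and 124 CPM in DN3 cells (2.13, SE 0.20, edgeR adjusted p = 2.93e-05), and its share of both lactate dehydrogenase genes by FPKM was 63.8% ± 0.975 in DP and 17.8% ± 1.64 in DN3 cells. The lactate dehydrogenase transcripts of DP cells were thus mostly Ldhb and those of DN3 cells mostly Ldha.

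Of the 8 genes of oxygen sensing and its targets, 5 rose in DP relative to DN3 cells and Vegfa fell, while P4ha1 did not pass (log2 fold change 0.50) and P4ha2 had too few reads to be tested. Mxi1, a repressor that opposes MYC, had 155, 102 and 113 CPM in WT DP and 44.2, 44.2 and 46.3 CPM in WT DN3 cells (log2 fold change 1.46, SE 0.19, edgeR adjusted p = 0.000196). Pdk1, which restrains pyruvate dehydrogenase, had 164, 215 and 239 CPM in DP and 101, 120 and 101 CPM in DN3 cells (0.93, SE 0.17, edgeR adjusted p = 0.00116). Hif1a had 172, 214 and 207 CPM in DP and 89.8, 133 and 102 CPM in DN3 cells (0.86, SE 0.17, edgeR adjusted p = 0.00237). Each of the 3 had every DP library above every DN3 library. Eno2, of low level, had 0.862, 1.96 and 1.70 CPM in DP and 0.406, 0.453 and 0.507 CPM in DN3 cells (1.71, SE 0.38, edgeR adjusted p = 0.00394). Egln1 (0.59), Egln3 (0.68), Bnip3 (0.63), Hk1 (0.63) and Pfkfb3 (0.48) rose as well. In the list of other hypoxia genes 12 rose and 9 fell of 24. Epas1, encoding HIF-2 alpha, averaged 9.69 ± 2.42 CPM in DP and 0.185 ± 0.0408 CPM in DN3 cells, and Ak4 averaged 0.299 ± 0.102 CPM in DP and 9.64 ± 1.42 CPM in DN3 cells (SD, n = 3 each). All 3 pentose phosphate genes that passed, of 7, fell, Tkt averaging 209 ± 50.6 CPM in DP and 641 ± 43.6 CPM in DN3 cells. Of the 19 genes, 15 passed in every leave-one-out fit.

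**Figure D4:**
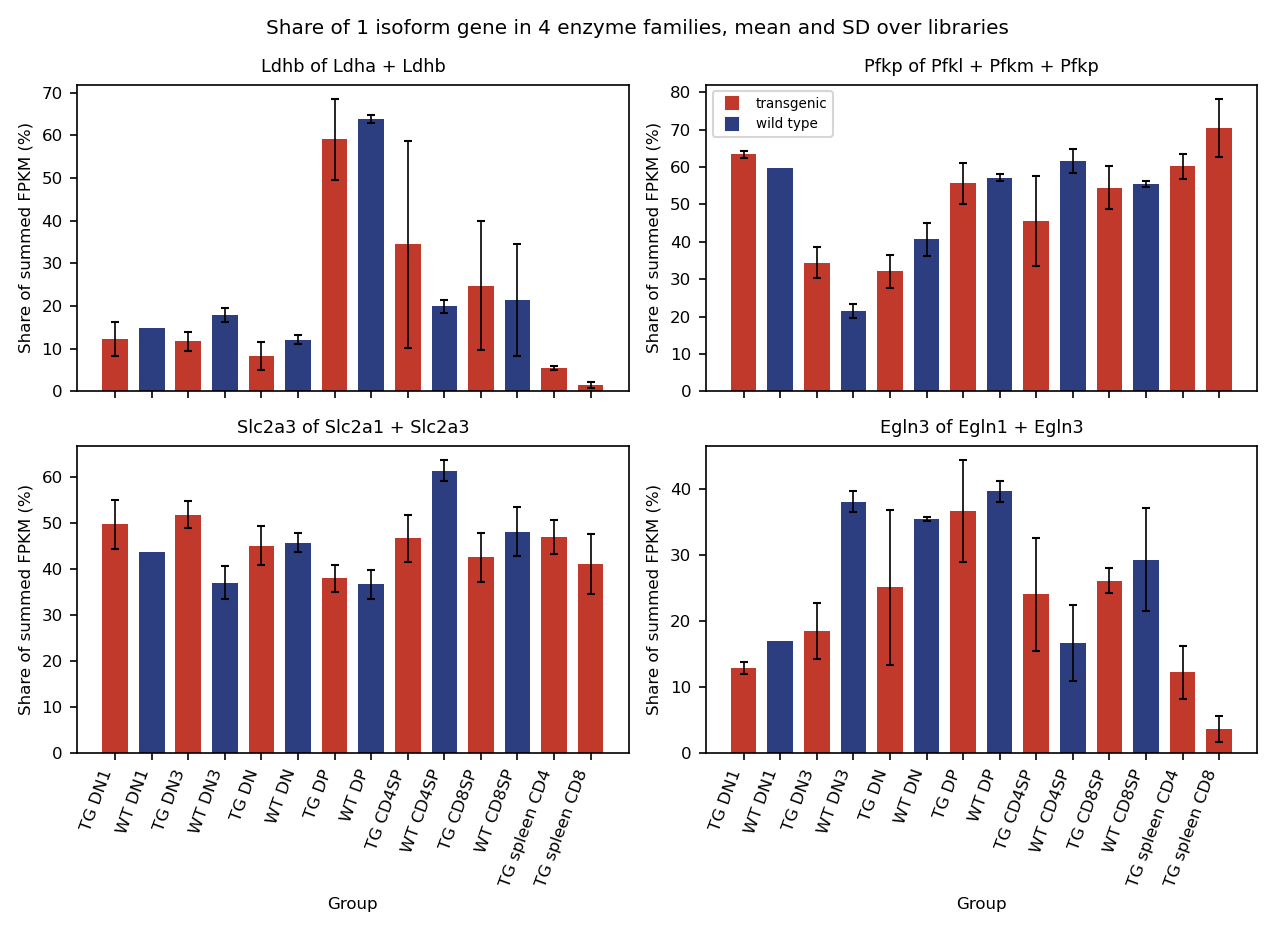
Share (%) of 1 gene in the summed FPKM of its family, for Ldhb, Pfkp, Slc2a3 and Egln3, as the mean with SD over 3 libraries per group (WT DN1 has 1 library and no error bar), TG in red left of WT in blue. The Ldhb share is 59.0% in TG DP and 63.8% in WT DP cells, and 1.51% in TG splenic CD8+ cells.

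In WT CD4SP cells, which derive from DP cells, 11 genes rose and 5 fell of 34 relative to WT DP cells, against 43.9% of all genes passing. The groups did not overlap in 19 of the 34 genes and in 56.6% of all genes. Slc2a3 had 84.7, 85.8 and 98.8 CPM in CD4SP cells, against 26.0, 21.8 and 21.4 CPM in DP cells (log2 fold change 2.01, SE 0.14, edgeR adjusted p = 6.17e-05). Slc16a3 had 4.43, 4.47 and 5.16 CPM in CD4SP and 1.10, 1.51 and 1.46 CPM in DP cells (1.84, SE 0.21, edgeR adjusted p = 0.000452). Eno2 had 8.33, 7.63 and 5.58 CPM in CD4SP and 0.862, 1.96 and 1.70 CPM in DP cells (2.30, SE 0.31, edgeR adjusted p = 0.00105). The glucose transporter and lactate exporter genes thus stood higher in CD4SP cells in every library. P4ha2 had 1.99, 2.88 and 1.72 CPM in CD4SP cells and 0.383, 0.733 and 0.568 CPM in DP cells, which is few reads (edgeR adjusted p = 0.00281). Eno3 had 21.9, 22.0 and 16.4 CPM in CD4SP and 9.05, 13.5 and 13.2 CPM in DP cells (0.81, SE 0.19, edgeR adjusted p = 0.0116). Pfkfb4 had 12.2, 12.6 and 10.4 CPM in CD4SP and 8.14, 7.29 and 8.604 CPM in DP cells (0.60, SE 0.15, edgeR adjusted p = 0.0134). Pkm (0.87), Aldoa (1.04), Hk2 (0.81), Ldha (0.62) and Eno1 (0.92) rose too, all on the log2 scale. These calls depended on single libraries. Pkm, Aldoa and Hk2 passed in 2 of 6 leave-one-out fits, and Ldha and Eno1 in 1 of 6. Of the 16 genes that passed, 10 did so in every such fit.

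Among the 5 that fell, Slc16a1 had 64.1, 57.4 and 75.5 CPM in WT CD4SP and 194, 255 and 234 CPM in WT DP cells (log2 fold change -1.74, SE 0.16, edgeR adjusted p = 0.000172). Ldhb had 94.4, 92.8 and 129 CPM in CD4SP and 610, 434 and 448 CPM in DP cells (-2.19, SE 0.22, edgeR adjusted p = 0.000278), and its FPKM share was 19.9% ± 1.52 in CD4SP cells (SD, n = 3). Egln3 had 9.48, 9.10 and 24.5 CPM in CD4SP and 68.7, 49.1 and 56.2 CPM in DP cells (-1.96, SE 0.41, edgeR adjusted p = 0.00717). Mxi1 had 37.7, 38.2 and 49.7 CPM in CD4SP and 155, 102 and 113 CPM in DP cells (-1.51, SE 0.21, edgeR adjusted p = 0.00126), and Vegfa was the other (-1.14), with 2.14, 1.98 and 2.10 CPM in CD4SP and 3.88, 5.34 and 5.07 CPM in DP cells. The 2 monocarboxylate transporter genes therefore moved in opposite directions, Slc16a3 up and Slc16a1 down. All 12 cell division markers were lower in CD4SP than in DP cells, with a median log2 fold change of -2.51, and their part in these differences was not tested. Without WT DP replicate 2, 10 of the 34 genes passed, and 4252 genes in all, against 5238 with no library left out. Other glycolysis and pyruvate genes had 3 higher and 3 lower of 20, pentose phosphate genes 0 higher and 1 lower of 7, and other hypoxia genes 7 higher and 3 lower of 24. Tigar, which lowers fructose 2,6-bisphosphate, averaged 15.3 ± 1.10 CPM in CD4SP and 3.94 ± 0.354 CPM in DP cells, and Hif3a averaged 21.0 ± 2.67 CPM in CD4SP and 1.70 ± 0.274 CPM in DP cells (SD, n = 3 each).

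In WT CD8SP cells 6 genes rose and 3 fell of 34 relative to DP cells, against 37.7% of all genes. The groups did not overlap in 16 of the 34 genes and in 54.4% of all genes. Tpi1 had 171, 140 and 122 CPM in CD8SP and 51.5, 48.1 and 42.7 CPM in DP cells (log2 fold change 1.62, SE 0.17, edgeR adjusted p = 0.000749). Hk2 had 8.47, 11.5 and 8.07 CPM in CD8SP and 2.54, 2.40 and 2.48 CPM in DP cells (1.93, SE 0.23, edgeR adjusted p = 0.00104). Ldha had 889, 717 and 699 CPM in CD8SP and 448, 334 and 316 CPM in DP cells (1.08, SE 0.21, edgeR adjusted p = 0.00625). In these 3 genes no CD8SP library reached down to the DP range. Slc2a3 (0.88), Pgam1 (1.17) and Pgk1 (0.72) rose as well, with 44.9, 46.1 and 35.2 CPM of Slc2a3, 247, 221 and 167 CPM of Pgam1 and 402, 338 and 303 CPM of Pgk1 in CD8SP cells. In DP cells Pgk1 had 246, 201 and 194 CPM. Mxi1 (-1.02), Pdk1 (-0.66) and Ldhb (-1.52) fell, with 63.7, 43.9 and 73.1 CPM of Mxi1 and 101, 139 and 147 CPM of Pdk1 in CD8SP cells. Ldhb varied in CD8SP cells, with 135, 71.9 and 306 CPM against 610, 434 and 448 CPM in DP cells. The CD8SP libraries held 4135 to 9117 CPM of DP markers and 796 to 1169 CPM of mature T-cell markers, and their part was not tested. The count was 5 without WT CD8SP replicate 1 and 15 without WT DP replicate 1. Over all genes it was 2163 and 5495, against 4408 with no library left out. Of the 9 genes that passed, 5 did so in every leave-one-out fit, and Pgk1, Mxi1, Pdk1 and Ldhb did not. Pentose phosphate genes had 3 higher and 0 lower of 7, with Tkt at 526 ± 68.1 CPM in CD8SP and 209 ± 50.6 CPM in DP cells (SD, n = 3 each). Other glycolysis and pyruvate genes had 3 higher and 3 lower of 20, and other hypoxia genes 8 higher and 6 lower of 24.

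In TG splenic CD4+ cells 1 gene rose and 5 fell of 34 relative to TG CD4SP cells, against 24.5% of all genes. Pfkm had 13.6, 14.3 and 11.7 CPM in splenic and 61.3, 45.6 and 45.7 CPM in CD4SP cells (log2 fold change -1.96, SE 0.22, edgeR adjusted p = 0.0074). Slc16a1 had 32.9, 34.3 and 46.4 CPM in splenic and 212, 311 and 132 CPM in CD4SP cells (-2.53, SE 0.35, edgeR adjusted p = 0.00931). Ldhb had 31.1, 29.7 and 31.4 CPM in splenic and 95.8, 485 and 287 CPM in CD4SP cells (-3.23, SE 0.55, edgeR adjusted p = 0.0136). The splenic values were close together and the thymic ones spread widely. Vegfa had 0.334, 1.09 and 1.49 CPM in splenic and 8.76, 5.27 and 7.31 CPM in CD4SP cells (-2.88, SE 0.65, edgeR adjusted p = 0.0241). Egln3 had 15.7, 11.9 and 6.09 CPM in splenic and 44.3, 29.9 and 25.0 CPM in CD4SP cells (-1.58, SE 0.41, edgeR adjusted p = 0.0354). Eno3 had 25.9, 24.0 and 23.5 CPM in splenic and 9.21, 7.98 and 14.5 CPM in CD4SP cells (1.20, SE 0.29, edgeR adjusted p = 0.0295). Splenic CD4 replicate 3 held 58629 CPM of erythroid and 3015 CPM of myeloid markers. In the splenic CD4 group as a whole, 5 of 5 B-cell, 5 of 6 myeloid and 5 of 6 erythroid markers were higher than in CD4SP cells. DP markers were lower in 6 of 7 (median log2 fold change -6.04), and 2 of 6 mature T-cell markers were higher. The part of these markers was not tested. When replicate 1 or replicate 2 of the splenic group was left out, 2 of the 34 genes passed. Over all genes 461 and 656 then passed, against 3085 with no library left out. Other glycolysis and pyruvate genes had 2 higher and 1 lower of 22, pentose phosphate genes 0 and 0 of 7, and other hypoxia genes 1 higher and 3 lower of 23, Plod2 averaging 2.80 ± 2.33 CPM in splenic and 19.3 ± 4.28 CPM in CD4SP cells (SD, n = 3 each).

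In TG splenic CD8+ cells 4 genes rose and 12 fell of 34 relative to TG CD8SP cells, against 37.3% of all genes. The groups did not overlap in 22 of the 34 genes and in 56.1% of all genes. Egln3 had 2.31, 2.11 and 1.74 CPM in splenic and 33.7, 39.7 and 39.4 CPM in CD8SP cells (log2 fold change -4.24, SE 0.23, edgeR adjusted p = 0.000496). Ldhb had 4.75, 4.66 and 4.77 CPM in splenic and 120, 159 and 437 CPM in CD8SP cells (-5.71, SE 0.58, edgeR adjusted p = 0.00123). Pfkm had 5.86, 8.26 and 9.08 CPM in splenic and 30.0, 48.9 and 43.8 CPM in CD8SP cells (-2.46, SE 0.28, edgeR adjusted p = 0.00173). These are the lowest Egln3, Ldhb and Pfkm levels of the 14 groups. Mxi1 had 30.0, 19.7 and 22.3 CPM in splenic and 65.4, 61.0 and 89.0 CPM in CD8SP cells (-1.63, SE 0.25, edgeR adjusted p = 0.00458). Slc16a1 had 30.3, 76.4 and 88.1 CPM in splenic and 330, 399 and 268 CPM in CD8SP cells (-2.41, SE 0.42, edgeR adjusted p = 0.00657). P4ha2 passed as lower with 3, 1 and 1 reads in the splenic libraries. Tpi1 (-1.54), Gapdh (-1.60), Pgk1 (-1.01), Pkm (-0.85), Pdha1 (-0.68) and Hif1a (-0.81) fell too. Of the 16 genes that passed, 10 did so in every leave-one-out fit. Tpi1 was among them, and Gapdh, Pgk1, Pkm, Pdha1 and Hif1a were not.

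The glucose transporters went the other way in splenic CD8+ cells. Slc2a3 had 71.6, 69.3 and 73.9 CPM in splenic and 38.3, 27.8 and 30.3 CPM in CD8SP cells (log2 fold change 1.10, SE 0.18, edgeR adjusted p = 0.00594). Slc2a1 had 48.4, 76.0 and 77.7 CPM in splenic and 26.9, 25.4 and 32.6 CPM in CD8SP cells (1.20, SE 0.23, edgeR adjusted p = 0.0102). Eno3 had 30.7, 23.8 and 23.9 CPM in splenic and 8.82, 10.2 and 8.67 CPM in CD8SP cells (1.45, SE 0.22, edgeR adjusted p = 0.00429). All 3 genes were higher in each splenic library. Aldoc had 5.22, 3.35 and 2.62 CPM in splenic and 0.488, 1.46 and 0.906 CPM in CD8SP cells (1.92, SE 0.58, edgeR adjusted p = 0.0415). All 12 cell division markers were lower in splenic CD8+ cells, with a median log2 fold change of -4.32, and all 12 were lower in splenic CD4+ cells, with a median of -2.82. Against CD8SP cells, 5 of 5 B-cell and 5 of 6 myeloid markers were higher in splenic CD8+ cells. DP markers were lower in 5 of 7 (median log2 fold change -8.33), and 6 of 6 mature T-cell markers were higher. The part of these markers was not tested. Of the fixed lists, other glycolysis and pyruvate genes had 4 higher and 6 lower of 21, pentose phosphate genes 0 higher and 3 lower of 7, and other hypoxia genes 2 higher and 2 lower of 23. Tigar averaged 18.9 ± 3.40 CPM in splenic and 3.66 ± 1.60 CPM in CD8SP cells, and Plod2 averaged 1.09 ± 0.583 CPM in splenic and 26.4 ± 7.34 CPM in CD8SP cells (SD, n = 3 each).

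Splenic CD8 replicate 1 stood apart in several of the genes. It had 48.6 CPM of Pfkfb4, against 7.64 and 5.90 CPM in replicates 2 and 3. It also had 40.4 CPM of Slc16a3, against 1.74 and 2.0 CPM, and 3.71 CPM of Vegfa, against 0.186 and 0.205 CPM. Hk1 was low in it, at 87.3 CPM against 238 and 248 CPM. Myeloid markers summed to 2852 CPM in this library and to 104 and 153 CPM in the others, and B-cell markers to 3347 CPM in it and 703 and 464 CPM in the others. Without it, 24 genes passed (8 higher and 16 lower), against 43.4% of all genes, while 10 passed without splenic CD8 replicate 2 or CD8SP replicate 1. Over all genes 2982 passed without splenic CD8 replicate 2 and 2626 without CD8SP replicate 1, against 4546 with no library left out. Without splenic replicate 1 Vegfa was lower by a log2 fold change of -5.61 and Slc16a3 of -1.31, and Aldoc no longer passed. The part of the myeloid and B-cell transcripts in this library's levels was not tested.

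Within groups, many of the glycolytic genes stood higher in libraries whose column name ends in N. The 12 such libraries fall in 8 groups that also hold libraries without the letter. A fit of all 40 libraries with a term for the suffix, chosen after the data were seen, called 13 of the 34 genes higher and 0 lower, against 8.17% of all genes higher and 9.74% lower (17.9% in either direction). Pkm, the last kinase of the pathway, was higher by 0.48 on the log2 scale (SE 0.08, edgeR adjusted p = 0.000213), Hk1 by 0.57 (SE 0.13, edgeR adjusted p = 0.00319) and P4ha1 by 0.57 (SE 0.14, edgeR adjusted p = 0.0071). These 3 were higher in 8 of 8 groups. Aldoa was higher by 0.67 (SE 0.11, edgeR adjusted p = 0.000242) and Ldha by 0.55 (SE 0.11, edgeR adjusted p = 0.00154). Aldoa, Ldha, Pgam1, Gapdh, Gpi1, Pfkl, Tpi1, Eno1, Pfkm and Pgk1 were each higher in 7 of 8 groups. A further fit left out splenic CD4 replicate 3, splenic CD8 replicate 1 and TG DP replicate 3. In it 15 of the 34 genes were higher and 1 lower, 13 of the 15 being higher in both fits. Over all 14502 genes tested, 1396 were higher and 1398 lower. Both splenic groups then held only libraries with the suffix, so they gave nothing on the suffix difference.

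**Figure D5:**
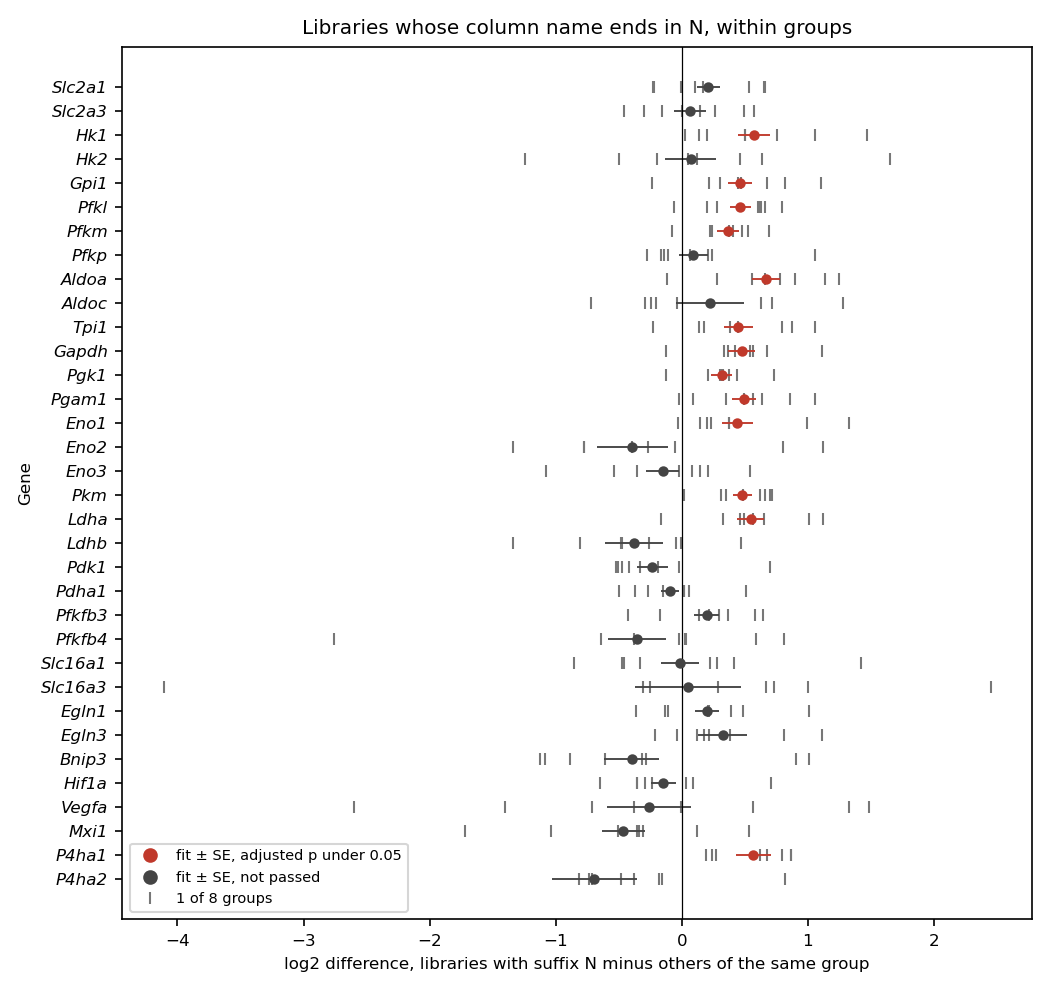
Log2 difference between libraries whose column name ends in N and the others of the same group for the 34 genes (rows), with ticks for each of 8 groups and a point with SE for the fit, red where edgeR's adjusted p was under 0.05. All 13 red points lie to the right of 0, between 0.32 for Pgk1 and 0.67 for Aldoa.

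The suffix is spread unevenly over the groups. It falls on 2 of 3 libraries in TG total DN, TG CD4SP and both splenic groups, on 1 of 3 in TG DP, TG CD8SP, WT DP and WT CD8SP, and on none in DN1, DN3, WT total DN and WT CD4SP. The comparisons of TG with WT total DN and CD4SP cells therefore have the suffix in the TG group alone, where genotype and suffix can be separated only through the libraries without it. In CD4SP cells the TG library without the suffix had 282 CPM of Hk1 and 2422 CPM of Gapdh, against 173 to 249 CPM and 1093 to 1668 CPM in WT cells. In total DN it had 286 CPM of Hk1, against 116 to 167 CPM in WT cells. With a term for the suffix, Hk1 no longer passed in either comparison, and neither did Gapdh in CD4SP cells. The DN3 comparison has no library with the suffix.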

How the data were processed

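RNA was sequenced from sorted T cells, and the table holds read counts and FPKM for 19521 genes in 40 libraries with labels. The counts are whole numbers deposited by the authors, not normalized, and the FPKM values were computed by the authors per gene length and library. The submitters' processing notes name the tools HISAT, Bowtie2, MACS2 and DESeq2, with mm9 and mm10 as builds, and give them no roles. Neither a counting tool nor a strand setting is given in the sources used here. A further 4 columns, of which 2 are counts, and the anti-LMO2 peak lists are not analysed here.

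CPM is the count over the library total after TMM scaling over all 40 libraries. Tests used edgeR 4.0.16 in R 4.3.3 (filterByExpr with a minimum count of 10 and a total of 15, TMM scaling, quasi-likelihood F test, prior count 0.125 for fold changes), over the libraries of the groups compared and all genes passing the filter, p-values being adjusted by Benjamini-Hochberg and called under 0.05. The SE is the log2 fold change over the square root of F. DN1 was tested in 1 fit of all 40 libraries, since WT DN1 has 1. DESeq2 1.42.0 was an alternative, beside DESeq2 size factors, no count filter, a term for the column suffix N, a replicate block, 1 fit of all libraries and each library left out. The tests were checked on simulated counts. Percent of genes called is over all genes tested in that comparison.

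The 34 genes and the lists were chosen with earlier results of these data known. In each comparison, the listed genes past the threshold with the smallest adjusted p, up to 6 higher and 6 lower, are given by library, and others by value, range or count. From the other lists, up to 2 higher and 2 lower with the smallest adjusted p may be named per comparison. Libraries of a group are numbered in the labels, which do not say whether they come from separate animals, so p-values measure the spread between these libraries, which may be technical. No 2 libraries had identical counts, and no pair within a group differed by less than counting noise. Some pairs were still much closer than the rest of their group. Their chi-square per gene, which grows with difference beyond counting noise, was 6.63 for WT CD4SP replicates 1 and 2 (other pairs 70.2 and 56.3). It was 8.10 for WT DP replicates 2 and 3 (118 and 120) and 9.56 for TG splenic CD8 replicates 2 and 3 (283 and 363). Such pairs narrow the spread that the p-values rest on. Gapdh, Eno1, Pgam1, Tpi1, Ldha, Pgk1, Aldoa and Pkm have near-identical pseudogene copies, and reads shared with those make their levels uncertain. Depth limits genes under 1 CPM, such as P4ha2 and Aldoc. Promoters are from RefSeq, build GRCm38.p6.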

Additional observations from a re-analysis of the deposited data

Results flagged for a closer look

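The difference between TG and WT cells was unequal in DP and DN3 thymocytes for 4 of the 34 genes, against 10.2% of all genes tested. The share of listed genes was thus near the background. This was a test of the interaction term in edgeR, adjusted by Benjamini-Hochberg over all genes. Expressed as the log2 fold change in DP cells minus that in DN3 cells, it was 1.52 for Tpi1 (SE 0.33, adjusted p = 0.0173), 1.04 for Ldhb (SE 0.27, adjusted p = 0.0351), -1.04 for Slc2a3 (SE 0.28, adjusted p = 0.0386) and -0.87 for Hif1a (SE 0.25, adjusted p = 0.0484). Without TG DP replicate 3, the library with 0.397 CPM of Lmo2, the values were 1.76 for Tpi1, 1.07 for Ldhb, -0.96 for Slc2a3 and -1.03 for Hif1a, and all 4 passed. The number of listed genes past the threshold was then 12, and it was 0 without WT DN3 replicate 1. Over all genes the number was 2598 without TG DP replicate 3 and 364 without WT DN3 replicate 1, against 1266 with no library left out. Of 12 fits with 1 library left out, Tpi1 passed in 11, Ldhb in 5, and Slc2a3 and Hif1a in 3 each.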

How the results depend on the processing

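No result that passed its test changed sign under the alternatives run, and of the single-gene values 1669 kept their side of the threshold, 243 lost it and 143 gained it. Counts of listed genes past the threshold moved by over 1.5 times as follows. With DESeq2's Wald test they were 6 in TG against WT total DN (3 with edgeR), 1 in DP (0), 14 in CD4SP (8), 2 in CD8SP (0), 10 in splenic CD4 against CD4SP (6) and 7 for the interaction (4). With a term for the suffix N they were 0 in total DN, 3 in CD4SP, 15 in WT CD8SP against DP (9) and 11 for the interaction. With 1 fit of all 40 libraries they were 6 in DN3 (17), 1 in DP, 17 in CD4SP, 15 in splenic CD4 and 1 for the interaction. Without the 2 total DN libraries of highest red-cell transcripts the count was 13. The cause of these shifts was not tested.

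Leaving out 1 library at a time gave 11 to 15 genes in DN3, 0 to 11 in total DN, 0 to 2 in DP, 0 to 11 in CD4SP, 0 to 1 in CD8SP, 0 to 0 in DN1, 16 to 23 in WT DP against DN3, 10 to 22 in WT CD4SP against DP, 5 to 15 in WT CD8SP against DP, 2 to 9 in splenic CD4, 10 to 24 in splenic CD8 and 0 to 12 for the interaction. Over all genes these fits gave 3802 to 6185 in DN3, 179 to 3146 in total DN, 9 to 724 in CD8SP and 352 to 2598 for the interaction. With no library left out the count over all genes was 5497 in DN3, and it was 2644 in 1 fit of all libraries. With edgeR it was 1547 in total DN, against 2625 with DESeq2, 198 with the suffix term and 3900 without those 2 libraries. It was 0 in DP, against 618 with DESeq2 and 695 in 1 fit of all libraries. It was 520 in CD8SP (1293 with DESeq2), 3085 in splenic CD4 (6867 in 1 fit of all libraries) and 1266 for the interaction (2182 with DESeq2, 1991 with the suffix term and 553 in 1 fit of all libraries). It was 3132 in CD4SP, against 1362 with the block and 5723 in 1 fit of all libraries, and ran from 38 to 4329 with 1 library left out.

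A replicate block gave 5 genes in CD4SP and 15 in WT CD8SP against DP, and moved no other count of listed genes by over 1.5 times. Over all genes it gave 798 in CD8SP, 2009 in splenic CD4 and 5430 in WT CD8SP against DP (4408 without it). Same-numbered libraries of CD4SP had correlations of -0.0431 to 0.0365. In total DN (0.0880 to 0.216) and WT CD8SP against DP (0.0755 to 0.497) each same-numbered pair exceeded its best other pairing. In no comparison did every pair exceed 0.1, so the main fits did not take the numbers as pairing. Whether they mark pairs was not tested. The median log2 fold change of all genes was 0.16 in splenic CD8 against CD8SP with DESeq2's Wald test and -0.03 with edgeR, and without a count filter it was -0.12 in TG against WT DN3 and in WT DP against DN3. Counts of a few reads limit P4ha2, Aldoc and Eno2.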

Other observations

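The following genes encode parts or a regulator of the pyruvate dehydrogenase complex, which carries pyruvate into the citric acid cycle, and are compared between TG splenic CD8+ and TG CD8SP cells. Beside Pdha1, one of the 34 genes, Pdhb averaged 65.8 ± 11.9 CPM in splenic CD8+ and 110 ± 13.7 CPM in CD8SP cells (SD, n = 3 each, edgeR adjusted p = 0.0228). Dlat averaged 44.4 ± 7.92 CPM in splenic and 76.6 ± 10.6 CPM in CD8SP cells (edgeR adjusted p = 0.0209). Dld averaged 50.8 ± 6.99 CPM in splenic and 82.3 ± 10.9 CPM in CD8SP cells (edgeR adjusted p = 0.0243). Pdhx averaged 12.9 ± 1.04 CPM in splenic and 25.0 ± 4.12 CPM in CD8SP cells (edgeR adjusted p = 0.0131). Pdp1, a phosphatase that activates the complex, averaged 11.1 ± 0.292 CPM in splenic and 24.3 ± 1.84 CPM in CD8SP cells (edgeR adjusted p = 0.00500). These genes were picked out after their values were seen, and they exceed the number named per list elsewhere. The list of other glycolysis and pyruvate genes that holds the last 5 had 4 higher and 6 lower of 21, and 37.3% of all genes passed in this comparison, 20.1% as lower. The call of Pdha1 was kept in 1 of 6 fits with a library left out and was lost with a replicate block, and the other 5 genes were not refitted with a library left out. Pdk1, whose kinase inhibits the complex, did not pass with all libraries. Without splenic CD8 replicate 1 it was higher in splenic cells (log2 fold change 0.62, edgeR adjusted p = 0.0326). The further kinase genes Pdk2 and Pdk3 are not shown.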
